A study of Sus scrofa with 32 samples.

Results

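The genes described here are 42 cell cycle and proliferation genes, covering G1 cyclins, DNA replication, the mitotic kinases, the spindle checkpoint and cytokinesis. They were matched by gene symbol to the assembled loci of the expression table, taking the locus with the highest mean where a symbol had more than 1, and 37 of the 42 had a locus among the 30413 loci of the series. RRM1, CDK1, CCNA2, AURKA and PRC1 had none by symbol, and the locus named KIF23 did not exceed 0.0189 FPKM (fragments counted on a locus, scaled to its transcript length and to the size of the library). The remaining 36 genes averaged over 0.5 FPKM in a genotype and were tested. In 6 of them the gene could not be separated from a neighbour in the same locus: CDK2 with RAB5B, MCM5 with HMOX1, MCM7 with TAF6, PLK1 with DCTN5, and FOXM1 and BUB1B each with an unnamed gene. The value of such a locus belongs to the locus and not to 1 gene.

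A dividing cell copies its DNA in S phase and separates the copies in mitosis. D-type cyclins release E2F transcription factors from the pocket proteins in G1, E2F then turns on the replication genes, and later the mitotic genes are turned on through NF-Y and CHR promoter elements by the MuvB complex with FOXM1. In fetal skeletal muscle the dividing cells are mainly myoblasts, satellite cell precursors and connective tissue and vessel cells, while the nuclei of muscle fibres have left the cycle. Most of the genes are transcribed mainly in dividing cells, while CDKN1A encodes an inhibitor of the cycle.

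RNA was sequenced from loin muscle (longissimus dorsi) taken from 32 pig fetuses on gestation day 77. The 16 crossbred Iberian x Large White fetuses (8 females, 8 males) and the 16 pure Iberian fetuses (8 females, 8 males) were carried by pure Iberian sows inseminated with mixed semen of Large White and Iberian boars, so that littermates could differ in genotype. According to the study, all sows were put on a restricted diet during gestation, with the amount set for each sow. Every fetus thus came from a feed-restricted pregnancy. The study asked how genotype, sex and body weight act on the muscle transcriptome before birth, and chose fetuses of high and low weight, but the labels do not state which fetus was heavy or light. The first 4 digits of the fetus names took 7 values and were read here as the sow, although the labels never say so, and 5 of the 7 sows then carried both genotypes. Fetuses of a litter share a mother, so p-values over fetuses measure the spread between animals that were not fully independent.

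No read counts were analysed, and the precision of low values is therefore unknown. Relative depth, estimated from the spacing of the lowest values, lay between 0.702 and 1.43 times the geometric mean in crossbred fetuses and between 0.728 and 1.35 in Iberian fetuses. The 6 muscle fibre markers with a locus summed to 6930 to 24600 FPKM in crossbred and 6160 to 22500 FPKM in Iberian fetuses, so the defining genes of the labelled tissue were present. The 4 fetuses of sow 1340 stood apart from the other 28 in the cell cycle genes, and the main counts are given with and without them. Whether fewer dividing cells or less RNA of these genes per cell lay behind a lower value cannot be told apart in bulk tissue.

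Promoter sequence was searched for letters that several of the genes share, a property the choice of genes did not use. Windows from 250 bases before to 50 bases after the annotated gene start were read from the RefSeq annotation of Sscrofa11.1, the build of the deposited table. A window was found for 41 of the 42 genes and for 19531 protein-coding genes in all; MCM5 lies on a sequence without a chromosome. The following letters were searched on both strands: TTCCCGC or TTGGCGC or TTCGCGC or TTGCCGC for E2F, CCAAT for NF-Y, and TTTGAA or TTCGAA for the CHR element. E2F letters stood in 14 of the 41 windows (34.1%), against 13.6% of all windows. CCAAT stood in 29 (70.7%), against 35.4% of all windows, and a CHR match in 19 (46.3%), against 15.6%. None of the letters stood in the windows of 6 genes, and no element was common to all 41. In the 27 genes called between litters below, E2F letters stood in 22.2% of windows, CCAAT in 66.7% and CHR letters in 48.1%. Over the 41 windows, CHR and CCAAT occurred together in 15 (36.6%), against 6.14% of all windows. E2F letters were in 3 of the 8 windows of the replication licensing and fork genes (CDT1, MCM3 and MCM6). CHR letters were in the 4 windows of the spindle checkpoint and anaphase genes BUB1, BUB1B, CDC20 and UBE2C. A match is a string of letters and not a measured binding site.

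**Figure D1:**
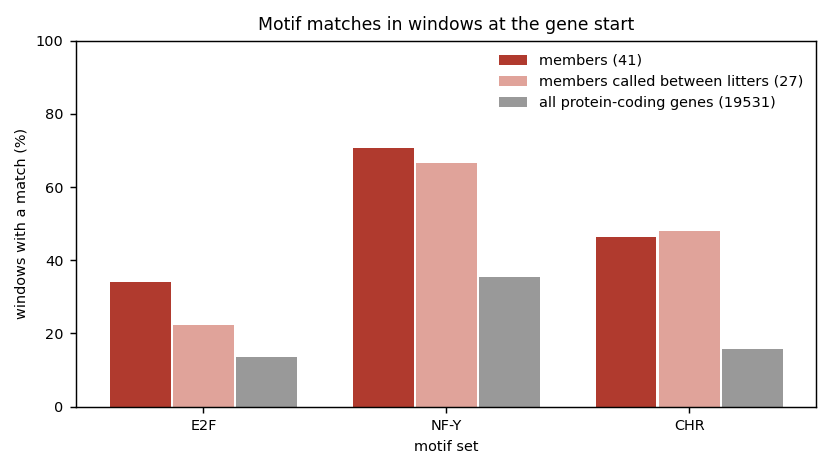
Share of gene-start windows with at least 1 match to the E2F, NF-Y and CHR letters (y axis, percent), for the 41 cell cycle genes with a window, the 27 of them called between litters, and all 19531 protein-coding genes. The cell cycle genes hold each kind of match more often, with 34.1%, 70.7% and 46.3% against 13.6%, 35.4% and 15.6%.

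The 250 bases before the start are shown for 4 genes with matches, 5′ to 3′ on the strand of the gene, with the matched letters in capitals. Genes that lead the litter comparison below are not among them. The window of CCND1 held none of the letters, and those of E2F1 and PCNA held no E2F letters. MCM6 (chr15:15923388-15923637, plus strand) and MCM3 (chr7:46104426-46104675, minus strand) encode subunits of the replicative helicase; UBE2C (chr17:48018153-48018402, plus strand) encodes the ubiquitin-conjugating enzyme of the anaphase-promoting complex; CCNB1 (chr16:47337989-47338238, plus strand) encodes cyclin B1. In MCM6 the E2F strings TTGGCGC and TTCGCGC overlap on opposite strands at both places, which gives 4 matches.
MCM6: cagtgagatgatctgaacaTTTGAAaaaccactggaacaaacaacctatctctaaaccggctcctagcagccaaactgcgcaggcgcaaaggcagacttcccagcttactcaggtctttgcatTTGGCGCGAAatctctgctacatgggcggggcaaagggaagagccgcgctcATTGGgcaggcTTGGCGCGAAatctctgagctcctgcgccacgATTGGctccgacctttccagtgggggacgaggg
MCM3: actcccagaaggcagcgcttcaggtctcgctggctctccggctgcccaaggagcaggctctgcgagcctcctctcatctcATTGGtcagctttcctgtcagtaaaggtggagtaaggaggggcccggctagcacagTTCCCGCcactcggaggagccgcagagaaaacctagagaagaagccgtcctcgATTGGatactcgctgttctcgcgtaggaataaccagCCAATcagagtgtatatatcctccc
UBE2C: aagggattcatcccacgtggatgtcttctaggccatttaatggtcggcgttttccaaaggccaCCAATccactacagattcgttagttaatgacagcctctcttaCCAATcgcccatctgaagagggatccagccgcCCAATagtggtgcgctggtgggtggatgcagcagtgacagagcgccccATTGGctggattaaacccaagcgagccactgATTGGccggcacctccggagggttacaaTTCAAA
CCNB1: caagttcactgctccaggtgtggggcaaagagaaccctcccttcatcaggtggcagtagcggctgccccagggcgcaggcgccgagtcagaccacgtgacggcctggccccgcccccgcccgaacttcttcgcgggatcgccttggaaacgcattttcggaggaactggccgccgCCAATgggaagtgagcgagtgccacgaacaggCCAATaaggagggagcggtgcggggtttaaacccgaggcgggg

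The most abundant gene of each role shows the range of levels (FPKM is scaled to length, and values are lowest, median and highest). CDKN1A, the p53-induced inhibitor of cyclin-dependent kinases, had 161, 275 and 413 FPKM in crossbred fetuses, against 85.0, 223 and 404 FPKM in Iberian fetuses, the highest level of the 36 genes. The MCM7 locus, which holds TAF6 too, had 35.3, 53.0 and 67.1 FPKM in crossbred, against 35.0, 43.6 and 66.3 FPKM in Iberian fetuses. UBE2C had 21.3, 31.4 and 39.7 FPKM in crossbred, against 16.6, 31.9 and 42.8 FPKM in Iberian fetuses. The ranges of the genotypes overlapped in each of these 3 loci. NUSAP1, a microtubule-binding protein of the spindle, had 13.9, 25.4 and 38.0 FPKM in crossbred, against 18.6, 26.0 and 35.1 FPKM in Iberian fetuses. TYMS, which makes thymidylate, had 9.40, 23.3 and 31.5 FPKM in crossbred, against 16.6, 23.3 and 30.7 FPKM in Iberian fetuses. The PLK1 locus, which holds DCTN5 too, had 12.0, 23.1 and 33.7 FPKM in crossbred, against 14.8, 21.8 and 31.6 FPKM in Iberian fetuses. TOP2A, the topoisomerase that untangles replicated chromosomes, had 4.98, 13.7 and 19.5 FPKM in crossbred, against 10.1, 13.7 and 16.7 FPKM in Iberian fetuses. In NUSAP1, TYMS, PLK1 and TOP2A the crossbred fetuses reached both lower and higher than the Iberian fetuses. CENPE, a kinetochore motor, had the lowest mean of the tested genes, 0.989 FPKM over the 32 fetuses.

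The genotype comparison asked whether the proliferation genes differed between crossbred and Iberian muscle. None of the 36 genes was called (limma, fold 1.3 or more with an adjusted p of 0.05 or less), against 1.36% of the 16750 loci tested. At an unadjusted p under 0.05 the count was also 0, whereas 17.9% of all loci were under it; it was 3 without sow 1340 and 2 with the sow as a block. The median log2 fold change, crossbred over Iberian on the log2(FPKM + 0.5) scale used throughout, was -0.05 for the 36 genes and 0.03 for all loci, with 12 genes higher and 24 lower in crossbred fetuses. The 95% intervals of the 36 differences lay between -0.81 and 0.63, and each of them spanned 0.

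The smallest p-values among lower genes belonged to E2F1, CCNB2 and CCND1. E2F1, the factor that turns on the replication genes, had 1.60, 9.22 and 11.5 FPKM (lowest, median and highest) in crossbred fetuses, against 5.32, 9.75 and 12.0 FPKM in Iberian fetuses. Its log2 fold change was -0.30 ± 0.17 (SE; adjusted p = 0.373 from limma). CCNB2, a mitotic cyclin, had 2.89, 6.05 and 8.11 FPKM in crossbred, against 4.94, 6.82 and 8.45 FPKM in Iberian fetuses, with a log2 fold change of -0.18 ± 0.11 (adjusted p = 0.403). CCND1 had 1.57, 6.68 and 7.87 FPKM in crossbred, against 3.44, 6.82 and 8.70 FPKM in Iberian fetuses, with a log2 fold change of -0.30 ± 0.19 (adjusted p = 0.408). For each of the 3 genes the ranges overlapped over most of their length, and the lowest crossbred value came from a fetus of sow 1340. Without the 4 fetuses of that sow the log2 fold changes were -0.07 for E2F1, -0.06 for CCNB2 and -0.03 for CCND1.

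Among higher genes the smallest p-values belonged to CDKN1A, CDK2 and BUB1. CDKN1A had a log2 fold change of 0.27 ± 0.18 (adjusted p = 0.444), with 10 of 16 crossbred fetuses above the Iberian median. The CDK2 locus, which holds RAB5B too, had 70.1, 88.7 and 104 FPKM in crossbred, against 72.8, 81.8 and 108 FPKM in Iberian fetuses (log2 fold change 0.06 ± 0.06, adjusted p = 0.616). BUB1, a kinase of the spindle checkpoint, had 1.68, 3.36 and 3.68 FPKM in crossbred, against 2.31, 2.84 and 3.50 FPKM in Iberian fetuses (log2 fold change 0.08 ± 0.08, adjusted p = 0.617). MKI67, the Ki-67 protein used as a marker of cycling cells, had 2.02, 5.33 and 7.85 FPKM in crossbred, against 2.92, 4.85 and 6.55 FPKM in Iberian fetuses, and its log2 fold change was 0.12 ± 0.12 (adjusted p = 0.618). Without sow 1340 the log2 fold change of MKI67 was 0.24, with an adjusted p of 0.146 from limma, which was the smallest of the 36 genes in that fit. The median over the 36 genes was then 0.07 and changed sign. The 6 adipocyte markers summed to 16.1 to 105 FPKM in crossbred and 24.4 to 448 FPKM in Iberian fetuses, with 6 of 6 lower at an unadjusted p under 0.05 and 0 of 6 called, and their part in these differences was not tested.

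Of the other cell cycle genes on a list of 144, 130 had a locus and 127 were tested. None was called by genotype, 8 had an unadjusted p under 0.05, and the median log2 fold change was -0.04. CKAP5, which promotes microtubule growth at the spindle, had 14.4, 16.5 and 22.3 FPKM in crossbred, against 10.7, 14.1 and 17.0 FPKM in Iberian fetuses, and each of the 16 crossbred fetuses lay above the Iberian median. Its adjusted p was 0.0453 from limma with a log2 fold change of 0.25 ± 0.07, under the fold minimum. CIT, citron kinase of the cleavage furrow, had 1.24, 1.78 and 3.97 FPKM in crossbred, against 1.13, 1.36 and 1.84 FPKM in Iberian fetuses (log2 fold change 0.32 ± 0.09, adjusted p = 0.0652). The remaining groups had their smallest p-values in CDC25B (log2 fold change 0.31) and CCNF (0.19) among mitotic regulators, NCAPD2 (0.14) and STAG2 (0.23) among chromosome genes, E2F2 (-0.21) and TFDP1 (-0.21) among E2F factors, FEN1 (-0.29) and CDC45 (-0.32) among replication factors, CENPH (-0.28) and CENPN (-0.32) at the kinetochore, RB1 (0.17) and RBL2 (0.15) among pocket proteins, and CDKN2C (-0.12) and CDKN1B (0.18) among inhibitors.

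**Figure D2:**
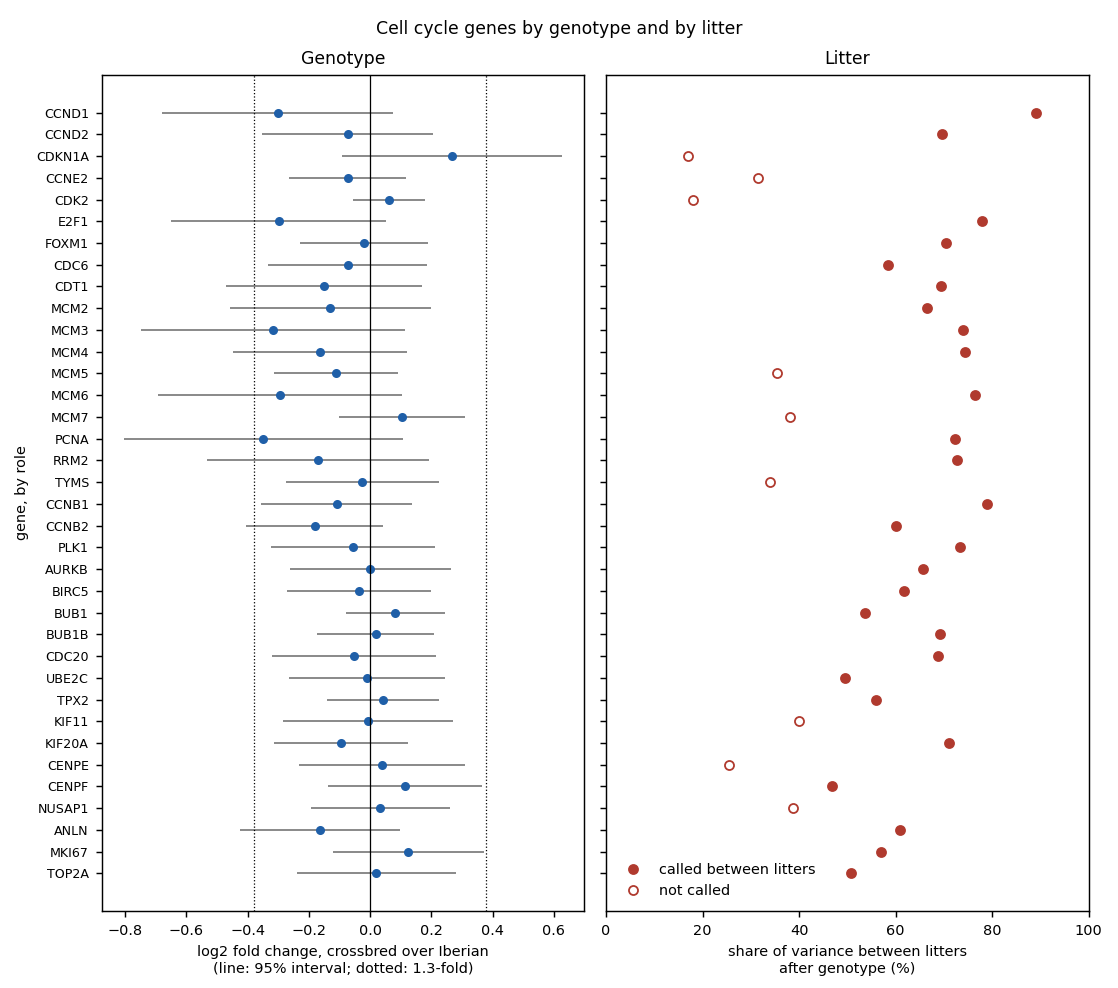
Left, log2 fold change of crossbred over Iberian fetuses (16 each) for the 36 tested genes, with the 95% interval as a line and a fold of 1.3 dotted. Right, share of each gene's variance that lay between litters after genotype, in percent, with filled points for the 27 genes called. Each interval at the left spans 0, while the shares at the right reach 89.1% for CCND1.

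The litter comparison asked whether the genes differed between sows. The F test of the sow number beside genotype called 27 of the 36 genes (75% of them; limma, adjusted p 0.05 or less, with no fold minimum), against 23.8% of all 16750 loci, and the litters held a median of 61.3% of the variance left after genotype, against 33.6% over all loci. The 27 genes had a lower mean in the 4 fetuses of sow 1340 than in the other 28 fetuses, against 11.0% of all loci that were called and lower there. Sow 1340 was singled out after these values were seen, so its contrast with the other litters is a description. The F test compares all sows, but it too was chosen with earlier results of these data known. It holds the values of sow 1340, and without that sow it called 0 of the 36 genes. In 16 genes the 4 values lay below every value of the other 28 fetuses, against 2.08% of all loci. The 4 libraries were those of crossbred fetuses 1340F5L, 1340F8L and 1340F9L and of Iberian fetus 1340F7L, and their relative depth of 0.828 to 1.33 lay within that of the others (0.702 to 1.43). Values for this litter are given below in that order, then the lowest, median and highest of the other 28 fetuses. The labels give no property of this sow, and the litter cannot be told apart from anything else its samples shared.

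**Figure D3:**
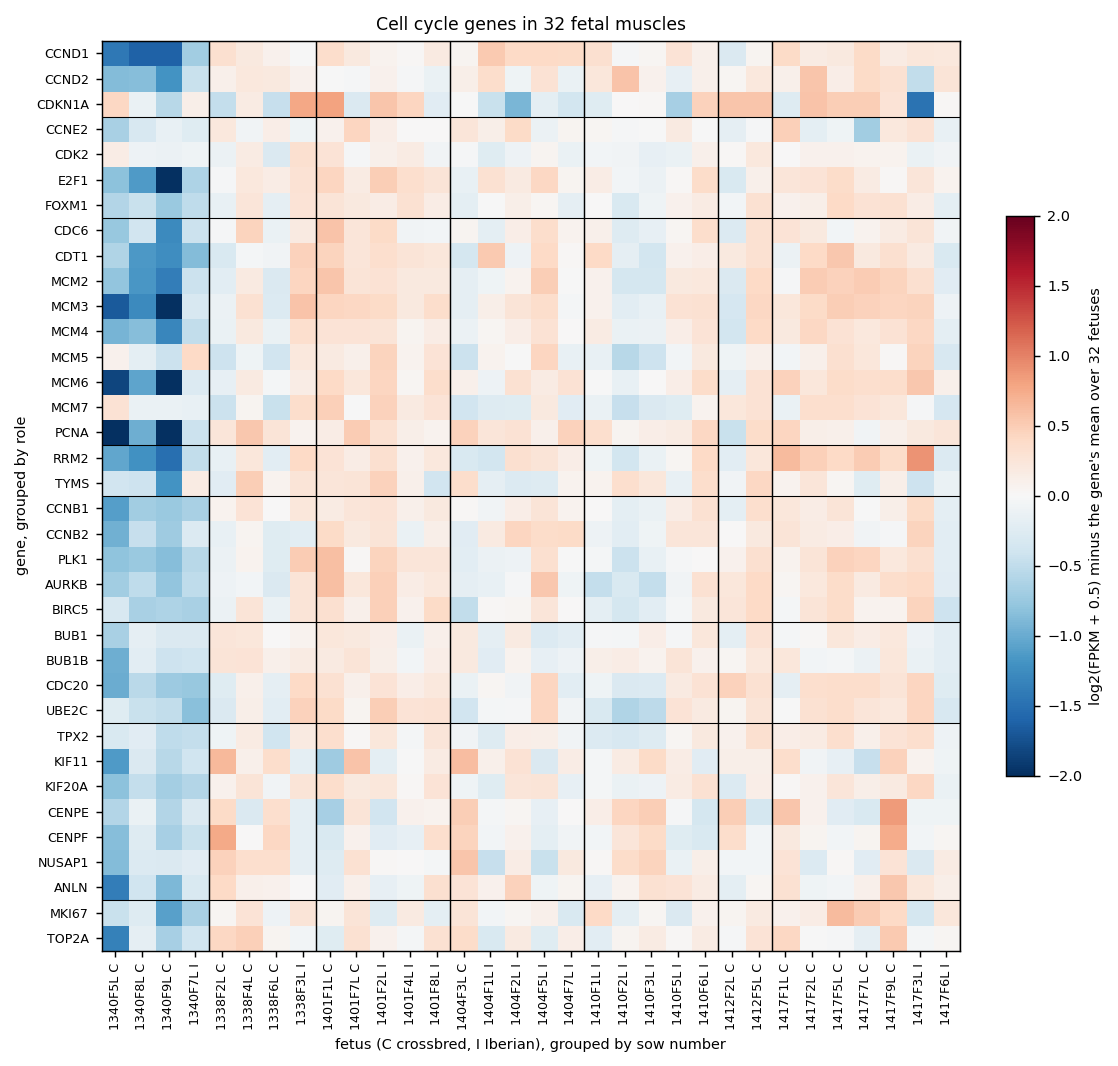
Level of the 36 tested genes (rows, grouped by role) in each of 32 fetuses (columns, grouped by sow, crossbred before Iberian), as log2(FPKM + 0.5) minus the mean of the gene. The 4 columns of sow 1340 at the left are blue in most rows. In 16 of the 36 genes (44.4%) all 4 values lie below every other fetus, against 2.08% of all loci.

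In G1, CCND1, which encodes cyclin D1, had 1.86, 1.57 and 1.58 FPKM in the crossbred fetuses and 3.44 FPKM in the Iberian fetus of sow 1340, against 4.73, 6.82 and 8.70 FPKM in the other litters. It had the smallest p of the 36 genes (adjusted p = 4.74e-08), and the mean of the other fetuses was 3.24 times that of sow 1340. The locus assigned to CCND1 in the table runs from 2503192 to 3840396 on chromosome 2, far beyond the annotated gene. The locus spanned over 2 times the RefSeq gene in 13 of the 35 tested genes compared, PCNA, MCM4, CDC20, KIF20A, CCNE2, TPX2, TYMS and CCND2 among those that carry no other gene name, and the part of neighbouring transcripts in these values was not tested. CCND2, the cyclin D of proliferating myoblasts among other cells, had 13.9, 14.1, 11.0 and 18.7 FPKM, against 18.2, 27.6 and 38.4 FPKM. E2F1 had 4.51, 3.56, 1.60 and 5.32 FPKM, against 6.73, 9.52 and 12.0 FPKM, and was the gene with the next smallest p (adjusted p = 1.71e-05). FOXM1, the factor of the mitotic genes, had 0.997, 1.15, 0.841 and 1.08 FPKM, against 1.31, 1.93 and 2.46 FPKM. CCND1, E2F1 and FOXM1 did not overlap with the other litters, and in CCND2 the Iberian littermate reached above 1 of the 28 others.

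Among the replication genes 7 of 9 licensing and fork genes were called. The 4 subunits of the MCM helicase whose locus carried no other gene name were called and lower in sow 1340. MCM6 had 6.34, 11.2, 5.46 and 19.7 FPKM, against 21.0, 27.5 and 34.7 FPKM (adjusted p = 2.81e-05). MCM3 had 2.94, 4.03, 1.82 and 8.25 FPKM, against 8.19, 13.0 and 15.8 FPKM, and MCM4 had 4.38, 4.64, 3.27 and 6.10 FPKM, against 6.75, 10.0 and 11.9 FPKM. MCM2 had 8.61, 6.58, 5.57 and 11.2 FPKM, against 11.9, 17.6 and 22.7 FPKM. In each of the 4 subunits the Iberian fetus stood above its 3 crossbred littermates, and in MCM3 it reached above the lowest of the other fetuses. CDC6 and CDT1 load the helicase onto origins. CDC6 had 1.16, 1.65, 0.659 and 1.59 FPKM, against 1.82, 2.48 and 3.68 FPKM, and CDT1 had 3.30, 2.1, 1.94 and 2.65 FPKM, against 3.97, 6.12 and 7.86 FPKM. PCNA, the sliding clamp of the replication fork, had 5.14, 16.5, 7.81 and 24.4 FPKM, against 24.0, 38.4 and 48.0 FPKM, the largest mean difference of the 36 genes (-1.71 on the log2 scale, adjusted p = 0.000111). RRM2, the regulated subunit of ribonucleotide reductase, had 5.52, 4.85, 3.85 and 8.25 FPKM, against 9.08, 13.8 and 22.6 FPKM.

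The mitotic cyclins and kinases were called in 5 of 5 tested genes. CCNB1, which with CDK1 drives entry into mitosis, had 2.87, 3.98, 3.80 and 4.12 FPKM, against 5.80, 7.48 and 8.96 FPKM (adjusted p = 2.52e-05). CCNB2 had 2.89, 4.28, 3.52 and 4.94 FPKM, against 5.08, 6.67 and 8.45 FPKM. AURKB, the kinase that corrects chromosome attachment, had 6.11, 7.02, 5.70 and 7.01 FPKM, against 7.16, 11.4 and 15.7 FPKM. BIRC5, survivin, its partner in the chromosomal passenger complex, had 10.1, 7.96, 8.14 and 8.04 FPKM, against 8.94, 13.6 and 18.0 FPKM. The locus of PLK1, a kinase of mitotic entry, had 12.4, 13.0, 12.0 and 14.8 FPKM, against 16.3, 23.1 and 33.7 FPKM. Of these 5, BIRC5 alone overlapped with the other litters, with 3 of the 28 fetuses below its highest value in sow 1340. Within sow 1340 the mean over these 5 genes was 0.18 log2 units lower in the crossbred fetuses than in the 1 Iberian fetus. Over the 9 replication licensing and fork genes it was 0.70 log2 units lower. For the other roles, crossbred minus Iberian lay between -0.79 (deoxynucleotide synthesis) and 0.06 (spindle checkpoint and anaphase).

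The spindle checkpoint and anaphase genes were called in 4 of 4. CDC20, which activates the anaphase-promoting complex, had 7.41, 10.3, 9.06 and 8.84 FPKM, against 12.3, 17.0 and 21.1 FPKM, with no overlap. UBE2C had 25.5, 21.9, 21.3 and 16.6 FPKM, against 19.8, 33.4 and 42.8 FPKM, BUB1 had 1.68, 2.51, 2.31 and 2.31 FPKM, against 2.32, 3.13 and 3.68 FPKM, and the BUB1B locus had 2.93, 5.32, 4.59 and 4.61 FPKM, against 5.30, 6.77 and 7.67 FPKM. These 3 overlapped with the other litters in 6, 4 and 1 of the 28 fetuses. Of the 7 tested genes of the spindle and cytokinesis 4 were called. KIF20A, a motor of the central spindle, had 4.20, 5.47, 4.72 and 5.06 FPKM, against 6.36, 8.55 and 10.5 FPKM. ANLN, anillin of the contractile ring, had 1.29, 3.01, 1.99 and 3.24 FPKM, against 3.47, 4.45 and 6.21 FPKM. TPX2, a spindle assembly factor, had 11.1, 11.7, 9.60 and 9.77 FPKM, against 10.4, 15.0 and 17.6 FPKM, and CENPF, of the outer kinetochore, had 0.863, 1.57, 1.05 and 1.31 FPKM, against 1.49, 2.01 and 3.69 FPKM. KIF20A and ANLN did not overlap with the other litters. MKI67 had 3.42, 3.96, 2.02 and 2.92 FPKM, against 3.69, 5.18 and 7.85 FPKM, and TOP2A had 4.98, 11.8, 8.28 and 10.1 FPKM, against 10.7, 14.0 and 19.5 FPKM. They overlapped with 3 and 4 of the other fetuses and were called (adjusted p = 0.00816 for MKI67 and 0.0219 for TOP2A).

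**Figure D4:**
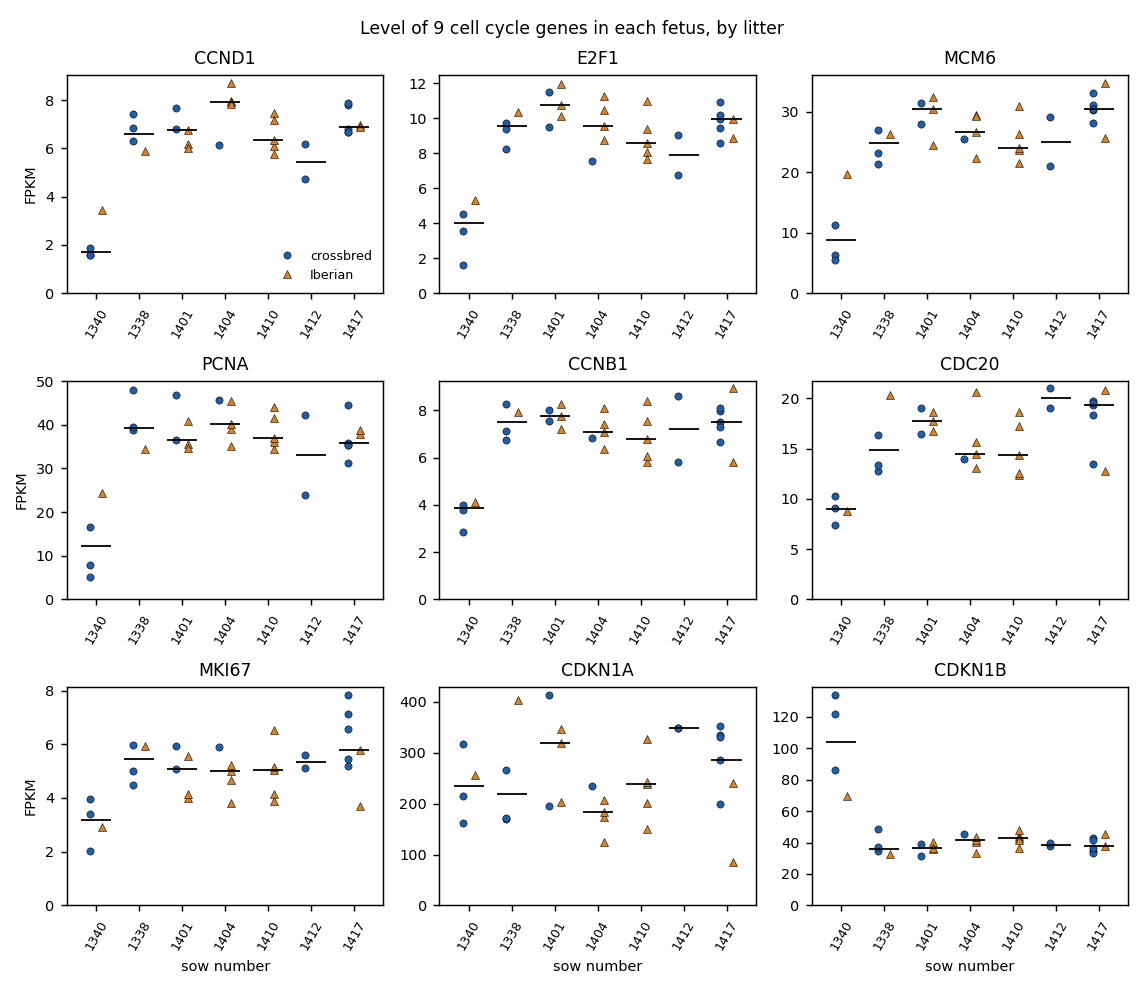
FPKM of 9 cell cycle genes in each fetus (circles crossbred, triangles Iberian), by sow number, with the litter median as a bar. In sow 1340 the 4 fetuses have 1.57 to 3.44 FPKM of CCND1, against 4.73 to 8.70 FPKM elsewhere, CDKN1A overlaps with the other litters, and CDKN1B is higher with 69.6 to 134 FPKM, against 31.6 to 48.8 FPKM.

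The 9 genes that were not called between litters were CDKN1A, CCNE2, CDK2, MCM5, MCM7, TYMS, KIF11, CENPE and NUSAP1. CDKN1A had 317, 215, 161 and 256 FPKM in sow 1340, against 85.0, 240 and 413 FPKM in the others, and its mean log2 difference was -0.05. The 3 merged loci among the 9 were nearly level as well, with mean log2 differences of -0.04 for CDK2, -0.04 for MCM5 and -0.04 for MCM7, and their values cannot be given to the cell cycle gene. CCNE2, cyclin E2 of S phase entry, had 1.84, 2.46, 2.82 and 2.60 FPKM, against 1.77, 3.24 and 4.62 FPKM (adjusted p = 0.237). TYMS had 16.9, 16.5, 9.40 and 24.9 FPKM, against 16.6, 23.3 and 31.5 FPKM (adjusted p = 0.166). NUSAP1 had 13.9, 21.3, 21.0 and 22.0 FPKM, against 18.6, 26.2 and 38.0 FPKM (adjusted p = 0.107). KIF11, a motor that pushes spindle poles apart, had 2.38, 4.66, 3.80 and 4.27 FPKM, against 3.35, 6.28 and 9.31 FPKM (adjusted p = 0.0855), and CENPE had an adjusted p of 0.377. In these 9 the ranges of sow 1340 and of the other litters overlapped.

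Loci without a symbol could be reached for CDK1, RRM1, PRC1 and KIF23 through their Ensembl numbers, a step added after the table had been seen. KIF23, a motor of cytokinesis, then had 1.57, 2.94, 2.32 and 2.56 FPKM in sow 1340, against 3.97, 4.63 and 5.72 FPKM (adjusted p = 7.75e-06), and RRM1, the large subunit of ribonucleotide reductase, had 22.5, 18.8, 16.4 and 23.3 FPKM, against 23.2, 30.5 and 38.1 FPKM (adjusted p = 0.00156). CDK1, the kinase of mitosis, had 3.98, 13.7, 10.3 and 9.29 FPKM, against 7.24, 16.1 and 22.2 FPKM (adjusted p = 0.0902). PRC1, which bundles central spindle microtubules, had 4.80, 6.41, 5.26 and 4.65 FPKM, against 5.48, 6.74 and 8.13 FPKM (adjusted p = 0.064). With these loci 29 of 40 genes were called between litters and 0 of 40 by genotype. AURKA and CCNA2 had no locus by either route and were not analysed here.

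When the 36 genes were averaged after centring each on its mean, the crossbred fetuses of sow 1340 had -0.79, -0.56 and -0.91 log2 units and their Iberian littermate -0.40, against -0.10 to 0.28 in the other 28 fetuses. The Iberian fetus was above its 3 littermates in 16 of the 36 genes and below them in 2. This describes 1 Iberian fetus and genes that were correlated, and no share over all loci is given beside it. The mean of crossbred minus Iberian littermates was -0.35 in sow 1340, -0.15 in sow 1338, 0.05 in sow 1401, -0.03 in sow 1404 and 0.18 in sow 1417, while sows 1410 and 1412 held 1 genotype each. Without sow 1340 the F test called 0 of 36 genes and 16 of 16638 loci, whereas genotype called 126 loci in the same 28 fetuses (0 of the 36 genes), 4 of the 36 genes had an unadjusted p under 0.05, and the smallest adjusted p was 0.222 from limma. When any of the other 6 sows was left out, 26 or 27 genes were called.

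The other cell cycle genes on the list of 144 were called between litters in 75 of 127, against 23.8% of all loci. Of these 75, 70 were lower and 5 higher in sow 1340, while 11.0% of all loci were called and lower there. The inhibitors and pocket proteins went both ways. CDKN1B, the inhibitor p27 of resting cells, had 86.2, 121 and 134 FPKM in the crossbred fetuses and 69.6 FPKM in the Iberian fetus, against 31.6, 39.5 and 48.8 FPKM in the other litters (adjusted p = 1.22e-06). RBL2, the pocket protein p130 of quiescent cells, had 19.8, 26.2, 27.1 and 21.4 FPKM, against 9.75, 13.0 and 17.0 FPKM (adjusted p = 0.000777). Both were higher in each of the 4 fetuses than in any other fetus, whereas RBL1, the pocket protein p107, which is highest in cycling cells, had 1.77, 2.65, 1.60 and 3.48 FPKM, against 3.05, 4.56 and 6.90 FPKM. CDKN2C, the inhibitor p18, had 8.59, 8.48, 7.25 and 9.26 FPKM, against 10.7, 13.8 and 16.0 FPKM. HMGB2, STAG2 and GMNN were the other 3 that were called and higher in sow 1340, with mean log2 differences of 0.65, 0.75 and 0.46. They encode a chromatin protein, a cohesin subunit and the inhibitor of CDT1. CDKN1C, a further inhibitor, was reached by Ensembl number only and is outside the 127. Its litter median was 181 FPKM in sow 1340, against 72.8 (sow 1338) to 114 FPKM (sow 1412) in the other litters.

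Among the lower genes, kinetochore and centromere genes were called in 14 of 17, against 23.8% of all loci called between litters. CENPN had 0.822, 1.02, 0.655 and 2.30 FPKM in sow 1340, against 2.94, 4.24 and 5.69 FPKM in the other litters, and CENPA, the histone variant of the centromere, had 2.84, 3.03, 2.2 and 3.25 FPKM, against 4.37, 5.52 and 6.59 FPKM. Of 34 other replication factors 19 were called and lower, against 11.0% of all loci. Their smallest p was in CHAF1A and POLE2, for chromatin assembly and DNA polymerase epsilon (the POLE2 locus also holds DNAAF2). CHAF1A had 1.11, 1.56, 1.15 and 2.28 FPKM, against 3.02, 4.12 and 5.01 FPKM. LMNB1, lamin B1 of the nuclear envelope, had 6.74, 13.6, 10.2 and 18.3 FPKM, against 21.6, 30.3 and 37.8 FPKM, and the locus of H2AFZ, a histone variant, which also holds DNAJB14, had 28.7, 30.0, 25.8 and 36.0 FPKM, against 41.1, 63.0 and 88.9 FPKM. KIFC1 and KIF18B led the spindle genes, CDCA8 and NEK2 the mitotic regulators, and E2F7 and TFDP1 the E2F factors, with mean log2 differences of -0.96 for KIFC1, -0.79 for KIF18B, -0.74 for CDCA8, -0.70 for NEK2, -0.80 for E2F7 and -0.71 for TFDP1. Of the genes given by value in this paragraph, none had a value in sow 1340 that reached the other litters. Among the 127 other cell cycle genes tested, 29 (22.8%) had all 4 values below every other fetus, against 2.08% of all loci.

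Markers of other cells moved with the litter in part. The called counts below stand beside 23.8% of all loci called between litters. The counts of 1 of 6 endothelial and 1 of 4 hepatocyte markers were near that share or below it. The 6 fibroblast markers summed to 7450 to 17900 FPKM in sow 1340, against 5960 to 14900 FPKM in the others. A higher mean log2 value in sow 1340 was found in 5 of these 6. It was found in 0 of 6 adipocyte markers (26.5 to 75.7 FPKM, against 16.1 to 448 FPKM) and 0 of 3 Schwann cell markers. The count was 2 of 4 for chondrocyte and 3 of 4 for lymphocyte markers, and 3 of the lymphocyte markers averaged under 0.5 FPKM. The 6 macrophage markers summed to 210 to 282 FPKM in sow 1340, against 145 to 471 FPKM in the others, 5 of 6 had a higher mean log2 value there, and 3 were called between litters: CD163, C1QA and C1QB. CD163, a scavenger receptor for haemoglobin, had 18.3, 21.5, 20.0 and 16.5 FPKM, against 2.65, 4.06 and 10.1 FPKM. The 6 erythroid markers with a locus summed to 434 to 3300 FPKM, against 118 to 2880 FPKM. Of the 4 tested, 3 were called and had a higher mean in sow 1340 than in the other fetuses together. Sow 1412, with 2 fetuses, had higher litter medians than sow 1340 in HBB (1630 against 597 FPKM), ALAS2 (29.0 against 18.0) and AHSP (8.2 against 3.09). The litter medians of HBZ, SLC4A1 and KLF1 were highest in sow 1340. HBZ, SLC4A1 and KLF1 averaged under 0.5 FPKM. VWF, made by endothelial cells and the 1 endothelial marker of 6 that was called, had 33.0, 33.2 and 42.7 FPKM in the crossbred fetuses and 8.54 FPKM in the Iberian fetus, against 3.70, 7.26 and 14.7 FPKM (adjusted p = 0.00475 from limma). APOA1, the 1 hepatocyte marker of 4 that was called, had 38.1, 32.1, 33.3 and 57.5 FPKM, against 42.3, 82.4 and 230.0 FPKM (adjusted p = 0.0135). VWF was thus high in the 3 crossbred fetuses of sow 1340 and within the range of the other litters in their Iberian littermate. Muscle fibre markers were called in 0 of 6 and summed to 10600 to 24600 FPKM, against 6160 to 23100 FPKM. The myogenic progenitor markers PAX7, MYF5, MYOD1 and MYOG were called in 0 of 4 and summed to 227 to 309 FPKM, against 98.6 to 384 FPKM. Their litter medians went both ways. PAX7 had 10.9 FPKM in sow 1340, against 10.9 (sow 1404) to 21.1 FPKM in the other litters, and MYOG had 120, against 132 to 217 FPKM. MYF5 had 61.5, against 35.0 to 48.7 FPKM, and MYOD1 had 61.5, against 46.4 to 72.7 FPKM. The part of these cells in the lower cell cycle genes was not tested.

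The sex comparisons were made within each genotype. In Iberian fetuses 0 of 36 genes were called (limma), against 0.116% of 16414 loci, and 0 had an unadjusted p under 0.05. MKI67 had 2.92, 4.08 and 6.55 FPKM (lowest, median and highest) in females, against 3.82, 5.13 and 5.92 FPKM in males, a log2 difference of -0.19 ± 0.13, and CCNE2 had 2.60, 3.42 and 4.31 FPKM in females, against 2.83, 3.18 and 3.47 FPKM in males, a difference of 0.12 ± 0.09. These were the 2 smallest p-values, and the sexes overlapped in both genes. In crossbred fetuses 0 of 36 genes were called as well, against 0.125% of 16843 loci, while 2 had an unadjusted p under 0.05 (14.9% of all loci had one). Without crossbred replicate 1, a male of sow 1338, that count was 8 and the smallest adjusted p 0.0573 from limma. In that fit 0 were called, against 0.149% of 16765 loci. CDKN1A had 161, 207 and 353 FPKM in crossbred females, against 170, 334 and 413 FPKM in crossbred males, and its log2 difference was -0.48 ± 0.19 (adjusted p = 0.331). BIRC5 had 7.96, 12.0 and 15.4 FPKM in females, against 10.1, 15.3 and 17.0 FPKM in males, with a difference of -0.34 ± 0.15 (adjusted p = 0.331). The median over the 36 genes, female minus male, was -0.15 in crossbred fetuses, and -0.04 without sow 1340. When the sow entered the fit as a block, 11 of the 36 crossbred differences had an unadjusted p under 0.05. In that fit 0 were called, against 0.196% of 16843 loci, and the smallest adjusted p was 0.0626 from limma. No share of all loci under that p is given beside the counts of 8 and 11, so they are not read as a sex effect on these genes.

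A sex effect that differed between the genotypes was called in 0 of 36 genes (limma), against 0% of 17345 loci, and 1 gene had an unadjusted p under 0.05. CENPE had 0.463, 1.27 and 2.09 FPKM in crossbred females, against 0.409, 0.674 and 1.52 FPKM in crossbred males. In Iberian fetuses it had 0.609, 0.892 and 1.44 FPKM in females, against 0.761, 0.930 and 1.54 FPKM in males. The sex difference was larger by 0.52 ± 0.25 log2 units in crossbred fetuses (adjusted p = 0.829). KIF11, the gene with the next smallest p, had 3.80, 7.52 and 9.15 FPKM in crossbred females and 2.38, 5.68 and 9.31 FPKM in crossbred males, against 4.27, 5.87 and 7.22 FPKM in Iberian females and 4.63, 5.99 and 7.75 FPKM in Iberian males (adjusted p = 0.829).

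The levels of the genes were correlated over the fetuses. The median Pearson r of the 630 pairs was 0.568 over 32 fetuses (Spearman rho 0.397), and 92.5% of the pairs were positive. The points share the litters and the libraries, so these values are given as a description. Centred on genotype and sow the median r was 0.278, and without sow 1340 it was 0.203 over 28 fetuses, with 63.3% of the pairs positive. CCNB1 had the highest median r to the other genes (0.774), and CDKN1A (0.164) and CENPE (0.167) the lowest. MCM3 and MCM6 had an r of 0.96 over all fetuses and 0.741 without sow 1340. PCNA and MCM6 had an r of 0.921 over all fetuses and 0.281 without sow 1340, and E2F1 and CCND1 had 0.896 and 0.399. MKI67 and TOP2A, both used as markers of cycling cells, had 0.488 over all fetuses and 0.034 without sow 1340.

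Not all genes followed the mean once sow 1340 was left out. ANLN, CENPF, CCND2, CENPE, NUSAP1 and KIF11 then had a negative r to the mean of the remaining genes, between -0.0954 and -0.442. MCM3, TPX2, FOXM1, MCM2 and MCM4 had r values of 0.838 to 0.856. The 6 genes with a negative r had a median r of 0.577 to each other without sow 1340. CCND2 was apart from the rest of the 6, with r from -0.216 (ANLN) to 0.17 (CENPF). The 6 were picked by their r in these values, so this is a description. Within the role of spindle, kinetochore and cytokinesis the genes differed, since TPX2 (0.854) and KIF20A (0.761) followed the mean and CENPE (-0.442) and KIF11 (-0.358) did not.

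**Figure D5:**
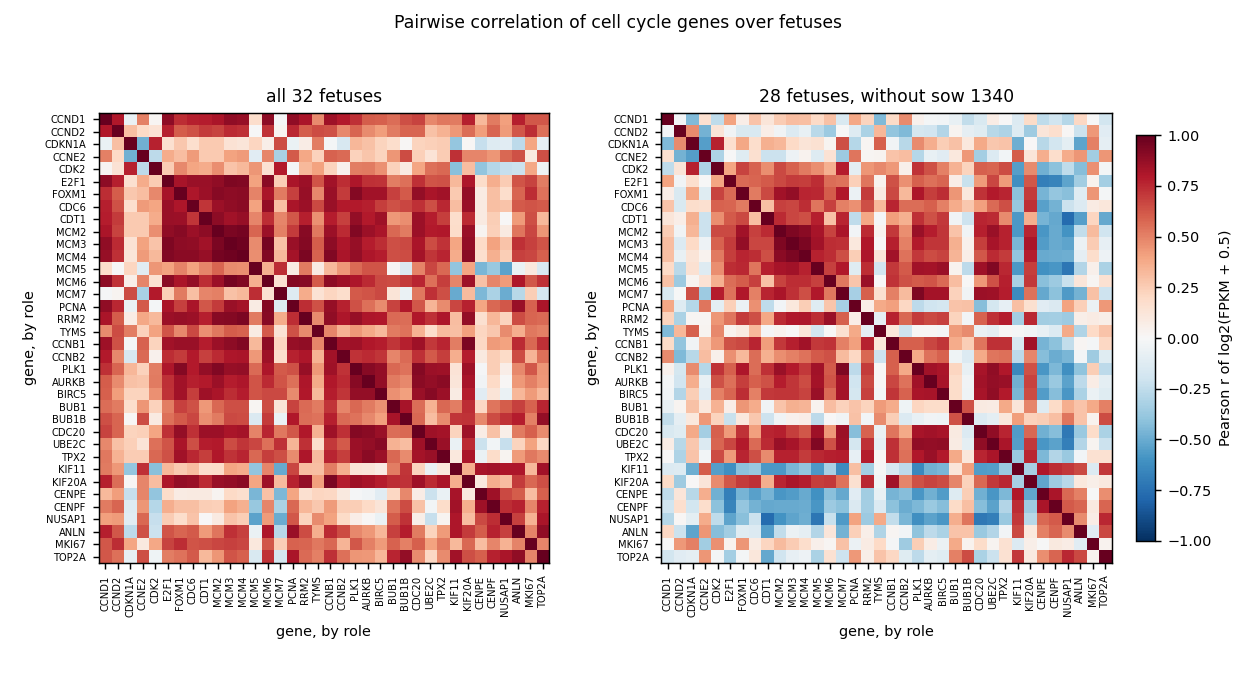
Pearson r between each pair of the 36 tested genes over 32 fetuses (left) and over the 28 fetuses outside sow 1340 (right), with genes in the order of their roles on both axes. At the left the median r is 0.568, and at the right it is 0.203.

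Outside the cell cycle lists, the 10 loci with the pattern most like the mean of the 36 genes, among 11212 tested loci with a symbol, had an r of 0.935 to 0.966 over 32 fetuses and of 0.564 to 0.807 without sow 1340. They were CDCA7, KPNA2, DOLPP1, CDC23, SKA3, ENGASE, FANCI, CDCA5, UCK2 and EXO1. CDC23 is a subunit of the anaphase-promoting complex, SKA3 binds kinetochore microtubules, CDCA5 is sororin of the cohesin complex, FANCI and EXO1 act in DNA repair, and KPNA2 is a nuclear import receptor. UCK2 makes pyrimidine nucleotides by salvage. CDCA7, the locus most alike, had 1.44 to 5.78 FPKM in sow 1340, against 6.62 to 12.9 FPKM in the others, and KPNA2 had 8.18 to 15.3 FPKM, against 19.9 to 42.5 FPKM. The likeness was measured by correlation alone, which was lower in each of the 10 without sow 1340.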

How the data were processed

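RNA-seq of longissimus dorsi muscle from 32 pig fetuses was analysed from the table of FPKM values deposited by the authors. Per the submitters' processing notes and the methods of the study, reads (paired, without strand) were trimmed with Trim Galore and aligned by TopHat2 (version 2.1.0, using Bowtie2) to the Sscrofa11.1 build, then assembled and quantified as FPKM with Cufflinks version 2.2.1 and Cuffdiff; the sources differ in the Bowtie2 version. Without strand, overlapping genes share reads, and assembly merged neighbours into single loci. In 2 libraries (1340F5L and 1410F6L) most values carry more digits than elsewhere.

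The log2(FPKM + 0.5) values were fitted with limma 3.58.1 under R 4.3.3, with variances moderated along the mean level, for each locus that averaged over 0.5 FPKM in a group of the comparison. The p-values were adjusted by the Benjamini-Hochberg method over every locus tested. A locus was called when its adjusted p was 0.05 or less and its fold was 1.3 or more, and the interaction and the F test of sow had no fold minimum. A fold on this scale understates the change of low genes. Other steps used Python 3.11.15. Genes were matched by symbol, the highest mean locus being taken for CCND2 and CDKN1A, which had 2 loci each. Windows at the gene start came from the RefSeq annotation of Sscrofa11.1.

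The members, the lists, the tests and the naming rule were chosen with earlier results of these data known. All genes called in a comparison were to be given by value, with those of the smallest p in each comparison, the most abundant of each role, the 2 smallest p of each group of other genes, and the 10 loci most correlated with the mean. CCND1's locus, the other genes given by value and sow 1340 were picked out after the values were seen. The fits were repeated with a pseudocount of 0.1 or of 1, with the low filter dropped or set at 1 FPKM, after rescaling of the libraries by the median of ratios, with the loci of a symbol summed, with robust variances, without a fold minimum, with the sow as a block or a random effect, with sex as a covariate, on sows carrying both genotypes, and without single fetuses, sow 1340 or 3 Iberian fetuses. Leaving out sows other than 1340, sow 1340 in the sex comparisons, matching by Ensembl number and leaving out merged loci were added after seeing the data. Fetal weight and the qPCR of the study were not analysed here.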

Additional observations from a re-analysis of the deposited data

Results flagged for a closer look

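Within the 4 groups of genotype and sex, with 8 fetuses each, the lowest or highest fetus was compared, on the log2 scale, with the spread of its group for the 36 genes and for their mean, 148 times in all. A fetus stood apart in 20 of the 148 comparisons, and 17 of the 20 were fetuses of sow 1340. The cutoff flags about 1 in 20 comparisons for independent values. The genes were correlated and shared fetuses, so the count of 20 is a description and not a test. Sow 1340 had already been picked out in these values, and its flags restate the litter contrast.

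Crossbred male 1340F5L accounted for 12. Its mean over the 36 genes was -0.79 log2 units, against a group median of 0.15. It had 1.86 FPKM of CCND1 (group median 6.83), 13.9 of CCND2 (27.9), 6.34 of MCM6 (28.1), 2.94 of MCM3 (13.6), 5.14 of PCNA (35.9), 5.52 of RRM2 (13.9), 2.87 of CCNB1 (7.34), 2.89 of CCNB2 (6.21), 2.93 of the BUB1B locus (6.77), 1.29 of ANLN (4.10) and 4.98 of TOP2A (13.2). Crossbred female 1340F9L had 2.02 FPKM of MKI67 (group median 5.33) and 0.659 of CDC6 (2.51). Iberian female 1340F7L had 3.44 FPKM of CCND1 (6.66), 24.4 of PCNA (39) and 2.65 of CDT1 (5.72).

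The other 3 came from other litters. Crossbred male 1338F2L had 35.7 FPKM of the MCM7 locus (group median 58.6), Iberian male 1404F7L had 45.5 FPKM of PCNA (35.8), and Iberian male 1410F3L had 1.54 FPKM of CENPE (0.930).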

How the results depend on the processing

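The count of 0 genes called by genotype held under all 48 alternatives run, and so did the counts of 0 in the sex comparisons (28 each) and in the interaction (42). The median log2 fold change by genotype ranged from -0.11, with sows of both genotypes only, to 0.07, without sow 1340, and was 0.0033 without crossbred replicate 6. Called loci by genotype numbered 48 with the sow as a block, against 227 without it, and the smallest adjusted p of the 36 genes was then 0.28 from limma. The count of 27 genes called between litters ranged from 20 to 29 when 1 fetus was left out, and was 0 without sow 1340, where the fit also held 4 fetuses fewer. The replicate numbers used here follow accession order and pair no fetuses, so the pairing of littermates was done through the sow, as the block above. Depth in reads is unknown, 6 loci are merged with a neighbour, fetal weight is not in the labels, and the sow is read from the name.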
